A study of Mus musculus with 4 samples.

Results

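Ring1b occupancy at genes of the Wnt ligand family was examined in C3H10T1/2 cells, a mouse line of mesenchymal progenitors derived from C3H embryos. The family was represented by 10 genes, Wnt1, Wnt2, Wnt4, Wnt5a, Wnt6, Wnt7a, Wnt7b, Wnt10a, Wnt10b and Wnt11. They were located through 8 fixed windows on the mouse build mm9, because Wnt1 shares a window with Wnt10b and Wnt6 shares one with Wnt10a. The windows were 90 to 130 kb wide and came to 880 kb together. Of the 6371 regions in the deposited table, 1 overlapped a window, the shared window of Wnt1 and Wnt10b. The other 7 windows, given for the remaining 8 genes, overlapped no region.

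Both groups of cells stably expressed histone H3.3 with a FLAG-HA tag, either wild type (WT) or with lysine 36 replaced by methionine (K36M), and were used between passages 10 and 15. The labels describe no change to the cells' own H3 genes, so that both groups are taken here as cells with an added H3.3 transgene, and they do not say whether a group was 1 clone. Chromatin was fixed with formaldehyde, sonicated and precipitated with a Ring1b antibody, giving a single Ring1b library per group. The series also has 2 input libraries (5% of the chromatin), whose values were not analysed here. The study asked where Ring1b is found across the genome in each. The table lists positions and no RNA, so the identity of the cells could not be checked against marker genes.

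Wnt proteins are secreted, lipid-modified ligands that bind Frizzled receptors. With the co-receptors Lrp5 and Lrp6 they stabilise beta-catenin, and with receptors such as Ror2 they act on cell shape and movement without it. In mesenchymal progenitors, Wnt6, Wnt10a and Wnt10b are known for holding back fat cell formation and favouring bone formation. Ring1b is an enzyme of Polycomb repressive complex 1 that attaches ubiquitin to histone H2A. The complex is often found at the CpG-rich promoters of silent developmental genes.

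The promoters of 4 of the genes are shown here. Wnt1 and Wnt10b have the window with the listed region, Wnt4 has the window with the nearest region outside it, and Wnt11 has the promoter with the highest CpG ratio among the 7 of the 10 genes with a RefSeq promoter here. The sequences are RefSeq promoters of the build GRCm38.p6, 250 bases before to 50 bases after the gene's start, 5′ to 3′ on the gene's strand, with each CpG in capitals. Their positions belong to that build and cannot be set against the mm9 positions of the regions.
Wnt1 (GRCm38.p6 chr15:98789607-98789906, plus strand): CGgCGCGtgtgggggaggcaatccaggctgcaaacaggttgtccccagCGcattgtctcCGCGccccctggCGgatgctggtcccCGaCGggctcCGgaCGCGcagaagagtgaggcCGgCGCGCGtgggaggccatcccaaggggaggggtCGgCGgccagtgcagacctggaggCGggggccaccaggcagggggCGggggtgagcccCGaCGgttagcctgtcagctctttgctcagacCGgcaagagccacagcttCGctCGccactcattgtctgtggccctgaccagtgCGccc
Wnt10b (GRCm38.p6 chr15:98778101-98778400, minus strand): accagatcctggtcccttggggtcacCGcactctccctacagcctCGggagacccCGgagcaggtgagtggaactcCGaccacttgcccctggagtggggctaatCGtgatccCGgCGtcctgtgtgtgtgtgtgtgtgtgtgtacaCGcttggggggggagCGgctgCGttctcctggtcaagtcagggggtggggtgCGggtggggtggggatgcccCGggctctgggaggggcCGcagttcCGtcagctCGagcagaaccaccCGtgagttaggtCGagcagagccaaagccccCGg
Wnt4 (GRCm38.p6 chr4:137277385-137277684, plus strand): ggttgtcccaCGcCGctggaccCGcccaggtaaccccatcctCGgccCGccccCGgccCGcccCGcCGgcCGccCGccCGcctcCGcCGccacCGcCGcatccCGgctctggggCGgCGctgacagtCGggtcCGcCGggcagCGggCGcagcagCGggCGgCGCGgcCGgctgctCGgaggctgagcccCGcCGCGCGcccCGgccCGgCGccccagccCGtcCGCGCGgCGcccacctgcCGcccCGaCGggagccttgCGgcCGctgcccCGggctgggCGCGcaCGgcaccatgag
Wnt11 (GRCm38.p6 chr7:98834862-98835161, plus strand): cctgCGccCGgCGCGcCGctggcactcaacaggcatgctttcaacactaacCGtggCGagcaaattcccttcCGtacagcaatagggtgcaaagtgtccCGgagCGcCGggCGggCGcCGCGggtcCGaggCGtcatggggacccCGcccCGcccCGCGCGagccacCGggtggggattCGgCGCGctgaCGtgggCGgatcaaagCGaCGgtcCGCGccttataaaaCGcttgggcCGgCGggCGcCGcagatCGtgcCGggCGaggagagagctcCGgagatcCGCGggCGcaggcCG

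The listed region in the shared window lay at mm9 chr15:98610801-98611200 and was 400 bp wide. Wnt1, a ligand of the beta-catenin branch known from the midbrain and neural crest, and Wnt10b, the ligand best known for restraining fat cell formation, are direct neighbours in the GRCm38 gene table. The order of protein-coding genes there is Arf3, LOC115488470, Wnt10b, Wnt1, Ddn and Prkag1, with Wnt10b on the minus and Wnt1 on the plus strand, so that they are transcribed away from each other. No annotation of mm9 was used, so the region is not assigned to a promoter, exon or intron of either gene, or to a neighbouring gene in the window.

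Ring1b was measured there at 1.61 RPM in WT cells and 1.33 RPM in K36M cells, where RPM is reads per 1000000 reads, scaled by 1 factor per library. The table heads its columns RPKM, but the values are not divided by width. These values stand for 48 reads in WT and 42 reads in K36M. The K36M value was the lower one, by 17.2%. The ratio of K36M to WT was 0.828, with an exact 95% counting interval of 0.534 to 1.28. That interval includes 1, so a difference between the 2 libraries was not detectable at this depth, and it also includes a ratio as low as 0.534. A single library stood for each group, so no replicates could be compared and the groups could not be tested against each other. The interval covers counting error only.

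On the log2((K36M + 0.1)/(WT + 0.1)) scale, which understates changes of low values, the Wnt1/Wnt10b region stood at -0.25. Over all 6371 regions the median was -0.65, and 85.1% of regions were lower in K36M. The region was therefore 0.40 above the median region on that scale, and 72.0% of all regions had a lower log2 ratio. Its counting interval, a ratio of 0.534 to 1.28, also includes the table's median. This position is therefore not resolved at 48 and 42 reads. It did not reach a 1.5-fold reduction, which 53.4% of all regions did, or a 2-fold reduction, which 33.5% did. A rise of at least 1.5-fold was found at 1.22% of all regions and one of at least 2-fold at 0.314%, and the Wnt1/Wnt10b region was in neither class. The counting interval lay wholly below 1 at 65.1% of regions and wholly above 1 at 3.06%, and included 1 at 31.9%, the Wnt1/Wnt10b region among them. An exact two-sided binomial test of the reads with Benjamini-Hochberg adjustment over all regions, a comparison of 2 libraries rather than of conditions, called 63.8% of regions lower and 2.81% higher. It did not call the Wnt1/Wnt10b region. All these shares are over regions that the table's name ties to peaks of the WT library. A choice by WT signal can by itself lower the ratio of K36M to WT, and how far it did so was not tested.

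The rank of the Wnt1/Wnt10b region among all regions depended on the scale. By reads per region, not divided by width, 9.73% of all regions had a lower WT value and 22.6% a lower K36M value. Per kb, 71.1% of all regions had a lower WT value and 82.2% a lower K36M value. Regions of the same width are the closer comparison, though they were matched for width alone. They include some with nearly equal values in both libraries, and how far these set the ranks and quartiles was not tested. Among the 1180 regions of 400 bp, the median was 2.19 RPM (WT) and 0.888 RPM (K36M), or 65.5 and 28 reads. Against these the Wnt1/Wnt10b region was low in WT, with 25.8% of them below it, and above the middle in K36M, with 63.4% below it. The median log2 ratio of the 400-bp regions was -1.03, and 76.5% of them had a lower log2 ratio than the Wnt1/Wnt10b region. Of the 400-bp regions, 64.7% were at least 1.5-fold and 51.4% at least 2-fold lower in K36M. The quartiles of their log2 ratios were -1.83 and -0.29, so the Wnt1/Wnt10b region lay just above the upper quartile. Its own counting interval reaches past that quartile on both sides.

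**Figure D1:**
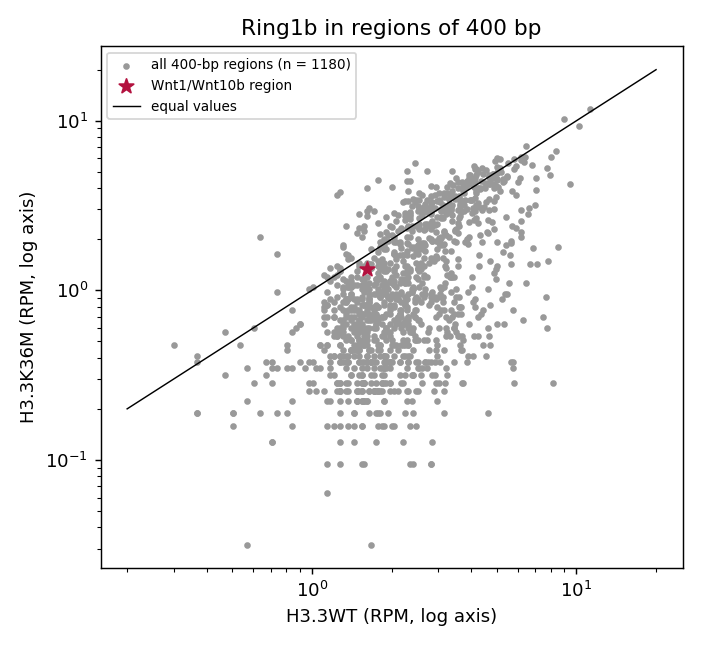
Each point is a 400-bp region, with its RPM in the WT library on the x axis and in the K36M library on the y axis (both log axes), and the line marks equal values. The star, the Wnt1/Wnt10b region at 1.61 and 1.33 RPM, lies just under the line and to the left of the WT median of 2.19 RPM.

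Within 300 kb of the region on either side the table held 9 others, 400 to 15200 bp wide, 8 of them lower in K36M and 1 nearly equal. Their single ratios of K36M to WT ran from 0.516 to 1.00, around the 0.828 of the Wnt1/Wnt10b region. Their log2 ratios ran from -0.87 to 0.00 with a median of -0.29, and 7 of the 9 were above the table's median. At least 1.5-fold lower values were found at 2 of the 9, beside 53.4% of all regions, and both lay more than 230 kb from the Wnt1/Wnt10b region. The counting interval lay below 1 at 4 of the 9, beside 65.1% of all regions, and included 1 at 5, beside 31.9%. The 10 regions include 3 touching pairs, so they do not count as separate sites.

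The largest of these neighbours, chr15:98536601-98551800, ended 18.2 kb before the window. It held 11.7 RPM (WT) and 9.51 RPM (K36M), or 348 and 300 reads, a ratio of 0.816 with an interval of 0.697 to 0.955. Its interval, from more reads, was narrower than that of the Wnt1/Wnt10b region and lay below 1. On the other side, the next region was a 400-bp one at chr15:98702201-98702600, 42.2 kb beyond the window, with 1.14 RPM (WT) and 0.983 RPM (K36M) (ratio 0.863, interval 0.513 to 1.45). Per kb, the Wnt1/Wnt10b region held 4.02 RPM (WT) and 3.33 RPM (K36M), above the 0.767 and 0.626 of the wide neighbour and the 2.85 and 2.46 of the narrow one. Density differs with width: the 400-bp regions had medians of 5.49 (WT) and 2.22 (K36M) RPM per kb, beside 1.75 and 0.921 for all regions. The densest of the 10 regions was another 400-bp one, chr15:98522401-98522800, with 6.28 and 4.36 RPM per kb.

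**Figure D2:**
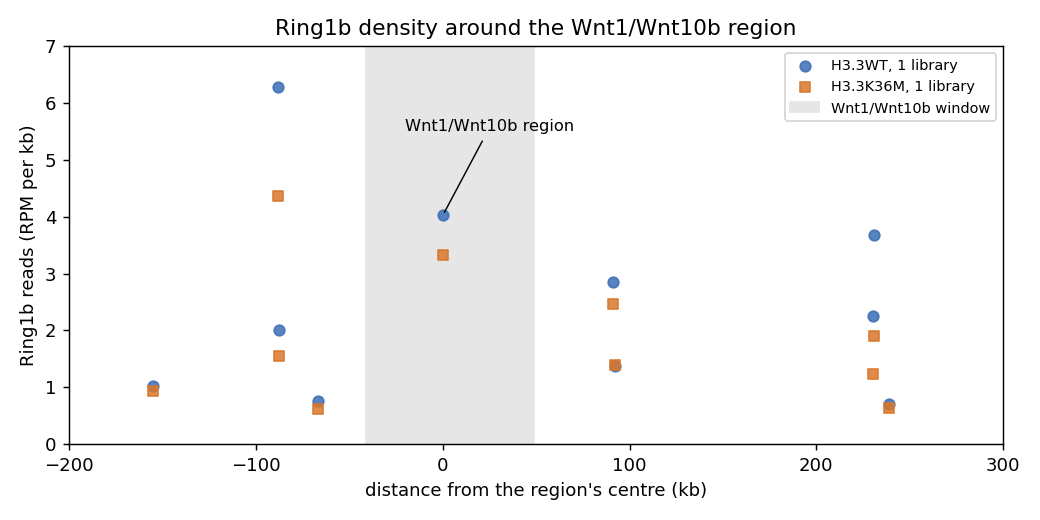
Ring1b density (RPM per kb, y axis) of each listed region against the distance of its centre from that of the Wnt1/Wnt10b region (kb, x axis), in the WT (circles) and K36M (squares) libraries, with the window shaded. The Wnt1/Wnt10b region, at 4.02 and 3.33 RPM per kb, is the only point pair in the window.

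Of the 8 windows, 12.5% held a region. This is close to what the table gives for windows of these widths in general. When each chromosome was divided into consecutive windows of the same width up to its last region, 12.3% of 90-kb windows and 16.1% of 130-kb windows held a region, with the other widths between. With 50 kb added on each side, 25% of the Wnt windows and 21.1% to 23.9% of all windows held one. The Wnt windows thus held regions about as often as any window of the table, and nothing particular to the Wnt genes is read from it. The division starts at the first base of each chromosome, unsequenced ends included, and was not matched for gene content.

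The other windows are described by the ligands they hold and by the listed regions nearest to them. A window without a region means that the table, whose name ties it to peaks of the WT library, lists none there. It does not give a Ring1b level for that gene, and sites that Ring1b occupies in K36M cells alone would be missing from it.

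Wnt6 and Wnt10a, neighbours in the gene table like Wnt10b and Wnt1, were in a window on chromosome 1 with no region (chr1:74770001-74890000). Both are ligands known to favour bone over fat cell formation. The nearest regions were 335.8 kb before and 194.0 kb after the window, and the later one, at chr1:75084001-75088200, held 4.49 RPM (WT) and 4.06 RPM (K36M) (ratio 0.904, interval 0.704 to 1.16). The earlier one held 3.65 and 2.73 RPM (ratio 0.747, interval 0.556 to 1.00), with an upper bound just under 1. Of the 3 ligands named above for fat and bone, Wnt10b had a region in its window, which it shares with Wnt1. That region is not assigned to either gene. Of windows of these widths in general, 12.3% to 16.1% held a region, so nothing about these ligands is read from it.

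Wnt2, a ligand of lung and vascular development, had the longest stretch without a region around its window. This window, at chr6:17900001-18020000, lay in a stretch of 4619 kb without a region, from 318.0 kb before the window to 4181 kb after it. The nearest region was farther from the Wnt5a window, at 630.0 kb. Of all 4762 stretches between neighbouring regions of the table, 1.76% were at least as long as that around Wnt2. They made up 24.3% of all bases between neighbouring regions. The 400-bp region before the Wnt2 window held 1.84 RPM (WT) and 0.539 RPM (K36M), or 55 and 17 reads. Its ratio of 0.292, with an interval of 0.159 to 0.512, was the lowest of all regions nearest to the Wnt windows.

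Wnt7a, which patterns the dorsal limb, and Wnt7b, known from lung and bone, had windows at chr6:91270001-91400000 and chr15:85330001-85450000 without a region. The Wnt7a window had regions 116.6 kb before it and 66.6 kb after it, and these differed in their ratios. The earlier one held 9.61 RPM (WT) and 9.10 RPM (K36M) (ratio 0.946, interval 0.801 to 1.12). The later one held 6.93 and 3.99 RPM (ratio 0.576, interval 0.458 to 0.722), and the intervals of the 2 do not overlap. Around Wnt7b the nearest regions, 260.0 kb before and 445.8 kb after, were both lower in K36M, with ratios of 0.649 and 0.603 and intervals below 1.

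Wnt5a and Wnt11 are ligands best known for signalling without beta-catenin, and neither had a region in its window. Wnt5a, required for outgrowth of the limbs, lay in a stretch of 2383 kb without a region around chr14:29270001-29380000. The regions on either side held 4.76 and 10.8 RPM in WT and 2.98 and 6.28 RPM in K36M, with ratios of 0.626 and 0.580 and intervals below 1. Wnt11, which acts in kidney and heart development, had its window at chr7:105940001-106040000 in a stretch of 990.4 kb. The 400-bp region 265.6 kb before it held 2.08 RPM (WT) and 0.919 RPM (K36M) (ratio 0.443, interval 0.275 to 0.698), and the region 624.8 kb after it had a ratio of 0.774 (interval 0.603 to 0.990).

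Wnt4, needed for kidney tubules and the female gonad, came closest among the windows without a region. A region at chr4:136784601-136789000 ended 11.0 kb before its window at chr4:136800001-136890000. It held 3.12 RPM (WT) and 2.69 RPM (K36M), or 93 and 85 reads, a ratio of 0.865 with an interval of 0.637 to 1.17 that includes 1. Widening every window by 50 kb on each side added this region and 5 around Wnt1 and Wnt10b, and none at the other 6 windows. None of the resulting 7 regions was at least 1.5-fold lower in K36M, beside 53.4% of all regions. Their median log2 ratio of -0.25, beside -0.65 for the table, was the value of the Wnt1/Wnt10b region itself. All but the region near Wnt4 lie around Wnt1 and Wnt10b, some of them touching, so the 7 do not count as separate sites.

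**Figure D3:**
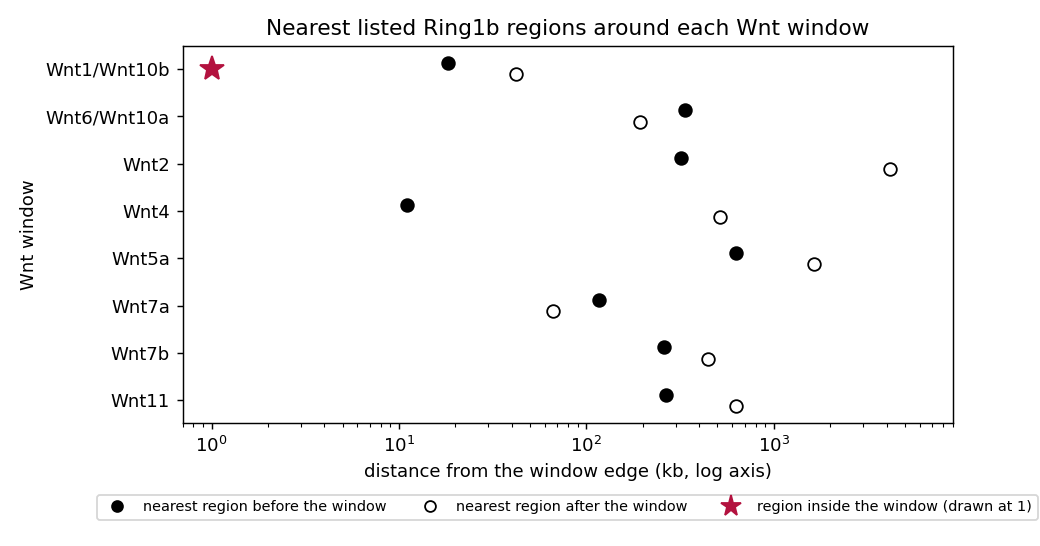
Distance in kb (log x axis) from the edge of each Wnt window (y axis) to the nearest listed region before (filled) and after it (open). The star at the left marks the region inside the Wnt1/Wnt10b window; Wnt4 has the closest region outside, at 11.0 kb, and Wnt2 the farthest, at 4181 kb.

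Taking the nearest region on each side of the 8 windows, 16 regions in all, each was lower in K36M, as were 85.1% of all regions. Their log2 ratios ran from -1.60 to -0.08 with a median of -0.57, beside -0.65 for the table. At least 1.5-fold reductions were found at 8 of the 16, beside 53.4% of all regions, and at least 2-fold reductions at 2, beside 33.5%. The counting interval lay below 1 at 12, beside 65.1% of all regions, and included 1 at 4, beside 31.9%. These regions lie outside the windows and are not assigned to the Wnt genes.

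**Figure D4:**
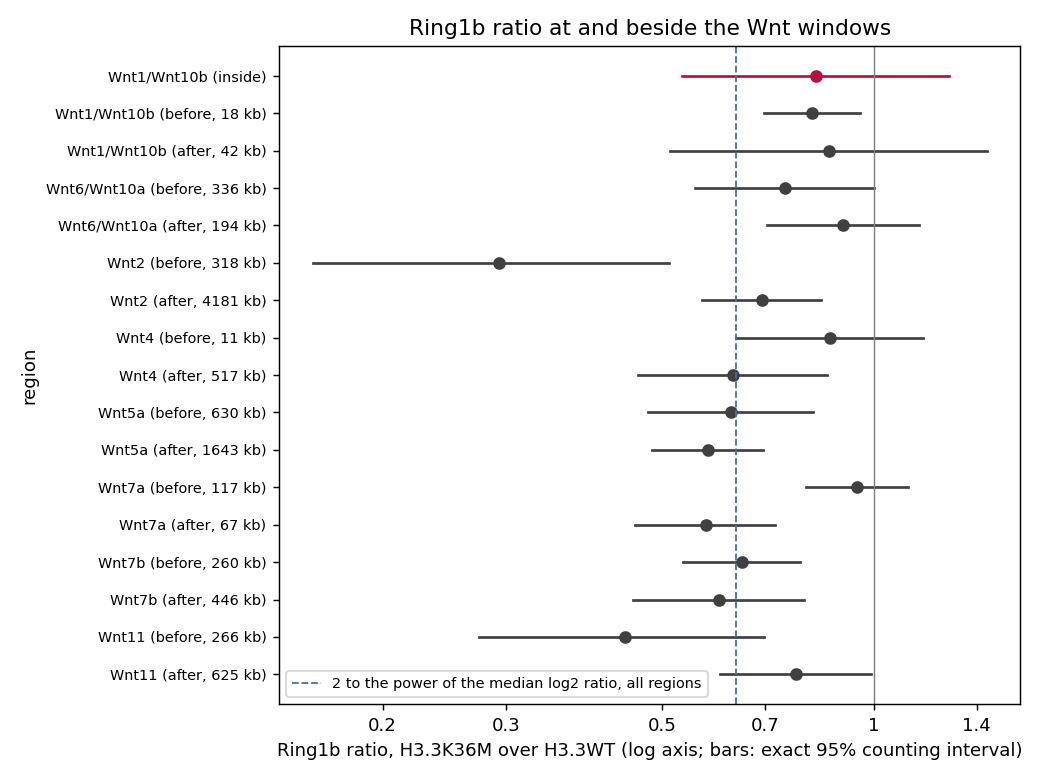
Ratio of K36M to WT Ring1b (log x axis) with its exact 95% counting interval (bars) for the region in the Wnt1/Wnt10b window (top) and the nearest regions before and after each window. The solid line marks equal values and the dashed line the median of all regions; the top bar crosses both, and every point lies left of the solid line.

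The matched promoters held more CpG than the median promoter, whether or not their windows held a region. RefSeq promoters matched 7 of the 10 genes, with 8 entries because Wnt11 has 2; Wnt5a, Wnt7b and Wnt10a were not matched. They held 18 to 51 CpG dinucleotides in 300 bases, beside a median of 7 over all 32851 promoters. The observed-to-expected CpG ratio was above 0.6 with a GC content above 55% in 7 of the 8, against 30.0% of all promoters. The set of all promoters was not limited to protein-coding genes, so it is not a matched comparison for the Wnt genes. All 6 promoters of windows without a region, 2 of them of Wnt11, were among these 7. The Wnt1 and Wnt10b promoters share 1 window, whose region is not assigned to either gene, so no relation to Ring1b is read from this. The Wnt4 promoter printed above had 51 CpGs, a GC content of 84.3% and a CpG ratio of 0.977, and the printed Wnt11 promoter had 45 CpGs, 71.3% GC and a CpG ratio of 1.18. For Wnt1 the values were 26 CpGs, 70.7% and 0.699, and for Wnt10b 18 CpGs, 66.3% and 0.559, the lowest CpG count and ratio of the 8. At least 1 CpG was found in 94.6% of all promoters.

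**Figure D5:**
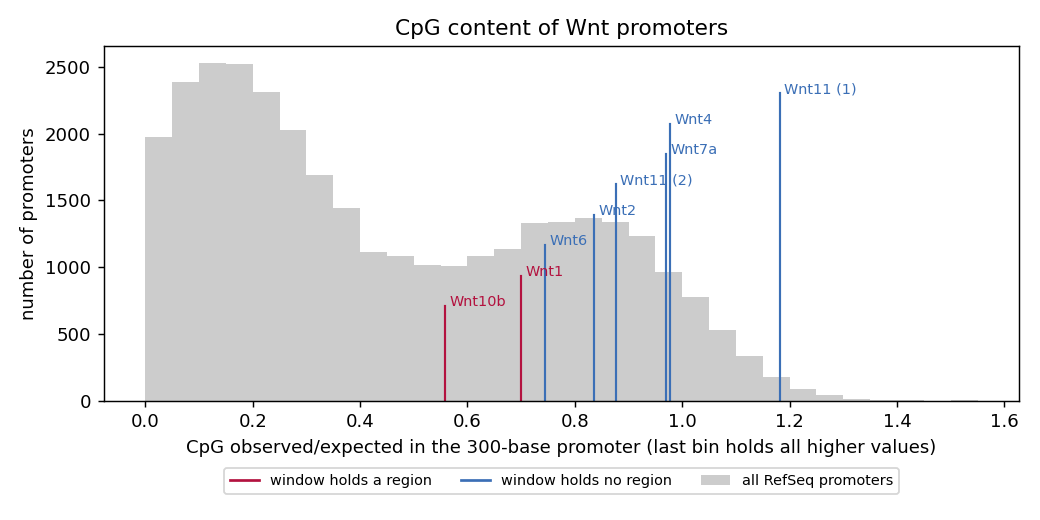
Number of RefSeq promoters (y axis) by observed-to-expected CpG ratio (x axis), with lines at the 8 Wnt entries, in red where the window held a region and in blue where it did not; line heights only separate the names, and the numbers after Wnt11 mark its 2 entries. The red lines of Wnt10b (0.559) and Wnt1 (0.699) lie to the left of all blue lines and stand for 1 shared window.

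Among motifs searched on both strands, TATAAA, the core of the TATA box, was found in 1 of the 8 Wnt promoters and in 13.6% of all promoters. CTTTGA, the core bound by the Tcf and Lef factors of the Wnt pathway itself, was also found in 1 of the 8 and in 16.0% of all. Both matches were in the printed Wnt11 promoter. A match describes the letters only, and no match says only that these letters are not in the window searched.

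Receptors, secreted inhibitors and targets of the pathway, and the other Wnt ligands, were not analysed here, since the table names no genes and no annotation of its build was used.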

How the data were processed

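The members and lists were chosen with earlier results of these data known: the 10 genes and 8 windows were given, and all are reported. Reads were handled with Bowtie 1.0.0 on the build mm9, per the submitters' processing notes. How peaks were called and reads counted is not given in the sources used. The authors deposited 1 value per region and Ring1b library in columns headed RPKM. The deposited values behave as RPM: all (100%) are whole multiples, within 0.01 reads, of 0.0335 (WT) or 0.0317 (K36M) at any width, which gave 1075510 and 720528 reads over all regions. Starts, counted from 0 in the table, are printed counted from 1. A region belongs to a window if they overlap. Ratios have exact Clopper-Pearson 95% intervals conditional on the region's reads; they cover counting error only, and whether PCR duplicates were removed is not stated. Fold classes use log2 with a pseudocount of 0.1. The interval was tested on simulated reads that held counting error alone, so duplicates and spread between libraries were not covered. All 10 genes are on their window's chromosome in the GRCm38 gene table, and all are shorter than their window; window positions were not checked against mm9 genes. The CpG thresholds, motifs, tiling, row-free stretches and 300-kb surroundings were chosen after the files were seen. Python 3.11.15, pandas 2.3.3 and SciPy 1.17.1 were used.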

Additional observations from a re-analysis of the deposited data

How the results depend on the processing

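The ratio at the Wnt1/Wnt10b region depends on the scaling. Centring on the median of all regions turned its log2 ratio from -0.25 to 0.40, dividing by the median ratio of all regions moved its ratio from 0.828 to 1.32, and scaling by the total over all regions moved it to 1.31. These are relative to regions that were mostly lower in K36M and that the table's name ties to peaks of the WT library. Pseudocounts of 0 and 1 gave log2 ratios of -0.27 and -0.16, and division by width gave -0.27. No region was at least 1.5-fold lower under any alternative that gave a value. With 50 kb added to each side, 2 windows held a region instead of 1. Leaving out the lower quartile of mean level removed the only region and gave no value. Merging regions changed nothing, since the window holds 1. No paired analysis was possible because each form of H3.3 has 1 Ring1b library. At 48 and 42 reads and without rescaling, ratios between 0.534 and 1.28 cannot be told from the measured one. That range includes the median ratio of all regions, so the ratio divided by this median is within counting error of 1. Rescaling leaves the reads unchanged, and no intervals were computed for the rescaled ratios.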
